A study of Mus musculus with 26 samples.

Results

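Gpr171 and 8 genes of the co-inhibitory receptor family were followed through the spleen of mice given ovalbumin, the egg-white allergen (OVA), alone or together with a miR-676-3p mimic, a synthetic copy of that microRNA. The 9 members, taken by gene name from a table of 56392 genes, were Gpr171, Pdcd1, Lag3, Havcr2, Cd160, Btla, Cd274, Pdcd1lg2 and Vsir. All 9 were among the 15672 genes with enough signal to be tested. Gpr171 was chosen by its higher level in OVA than in saline in these same libraries, and the other 8 were added as co-inhibitory receptors and ligands with earlier results of these data known. The levels under OVA and saline are therefore given as a description, with no test. Gpr171 itself is tested only in MM against MN, whose difference uses no saline library and no library of OVA alone. The spread in that test is still fitted over all 26 libraries.

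Poly(A) RNA of the spleen was sequenced from female BALB/c mice aged 8 weeks. The control mice received saline into the peritoneum (code CT, 5 libraries). The OVA mice received OVA there at 0.05 mg per day on days 1, 3 and 5 (codes OS, 6 libraries, and ON, 5 libraries). The mice given OVA with mimic also had the miR-676-3p mimic injected on day 3 (7 mg per kg, tail vein) (codes MM and MN, 5 libraries each). The labels do not define OS, ON, MM and MN, and no scrambled-mimic group is among the samples analysed here. They give 20 mice per group but leave unsaid if the libraries of a code are different mice, so p-values measure at most the spread between these samples, which may be technical.

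Co-inhibitory receptors restrain lymphocytes that have met antigen. PD-1 (Pdcd1) is induced on T cells by stimulation and recruits phosphatases when it binds its ligands PD-L1 (Cd274) and PD-L2 (Pdcd1lg2) on other cells. LAG-3 (Lag3) binds MHC class II, TIM-3 (Havcr2) marks T cells after repeated stimulation and is also found on macrophages and dendritic cells, and CD160 and BTLA share the ligand HVEM (Tnfrsf14). VISTA (Vsir) is abundant on myeloid cells and resting T cells. GPR171 is a G-protein-coupled receptor for the peptide BigLEN, which is cut from the Pcsk1n product, and it has been described as a brake on T-cell activation.

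The mature mimic sequence shows which 7 bases a direct target would pair with. It is printed from the RefSeq-based microRNA table of GRCm38.p6 (chrX:100381151-100381171, plus strand), with the seed, bases 2 to 8, in capitals.
mmu-miR-676-3p: cCGUCCUGagguuguugagcu
None of the 9 members held a match to bases 2 to 8, or to bases 2 to 7, in its longest annotated 3′ UTR (GENCODE M21 on GRCm38). These UTRs ran from 81 bases in Lag3 to 3745 bases in Vsir. Among 11667 tested genes with such a UTR, 3.82% held the longer match and 11.3% the shorter one. The absence of these letters says nothing on pairing of other kinds or outside the UTR.

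The promoters of Cd274 and Pdcd1 are shown because these were the 2 members whose levels ran most closely with Gpr171 across libraries. Each is the 250 bases before the RefSeq start in GRCm38.p6, read 5′ to 3′ on the gene's strand (Cd274 chr19:29367188-29367437, plus, and Pdcd1 chr1:94052554-94052803, minus). The capitals mark every match to the searched motifs.
Cd274: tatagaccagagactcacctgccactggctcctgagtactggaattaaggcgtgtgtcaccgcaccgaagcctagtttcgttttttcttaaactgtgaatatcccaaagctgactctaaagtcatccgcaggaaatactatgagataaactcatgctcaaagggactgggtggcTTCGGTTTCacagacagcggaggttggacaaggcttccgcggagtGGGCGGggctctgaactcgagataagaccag
Pdcd1: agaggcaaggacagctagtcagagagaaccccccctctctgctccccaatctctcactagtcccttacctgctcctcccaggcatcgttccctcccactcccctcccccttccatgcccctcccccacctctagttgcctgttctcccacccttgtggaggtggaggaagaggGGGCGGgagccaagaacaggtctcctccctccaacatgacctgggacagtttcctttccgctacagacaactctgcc
The motifs, searched on both strands, were AP-1 (TGANTCA), the element of interferon regulatory factors (GAAANNGAA), GAS (TTCNNNGAA), NFAT (GGAAAA), CRE (TGACGTCA) and the GC box (GGGCGG), and matches of different motifs were allowed to share bases. Counted to the motif's first base on the plus strand of the window, Cd274 held 1 GC box 31 bases before the start and Pdcd1 held 1 at 77 bases, a motif present in 32.7% of 32851 promoter windows. Cd274 also held 1 match to the interferon-factor letters at 76 bases, as did 7.13% of windows; with a further A at the end of those letters there was no match in either promoter, against 2.98% of windows. AP-1, GAS, NFAT and CRE were in neither promoter, and were in 6.75%, 7.02%, 20.4% and 1.55% of all windows. The promoter table had entries for 7 of the 9 members, and Gpr171 and Lag3 were not among them.

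Values are FPKM, fragments scaled to gene length and to a library size, so they can be compared between genes per length. That size was 0.712 (ON 2) to 1.12 (ON 1) times the reads recovered from the FPKM, and 0.802 times in CT 4. It is therefore not the read total alone. Reads recovered from the FPKM ranged from 14224832 to 18113989 per library, and 1 read on 1 kilobase was worth 0.0520 to 0.0899 FPKM. The precision this gives covers counting error only. Markers of the neighbouring pancreas held 21.8% of the ON 2 reads, 11% of those of MM 2 and 3.38% of those of ON 3, and at most 0.00302% elsewhere. CT 4 had 6.62% mitochondrial reads against 1.44% to 1.81% in the other saline libraries, and the lowest levels of Gpr171, Pdcd1, Lag3 and Pdcd1lg2 of all 26 libraries. The 11 T-cell markers were all expressed, and their summed FPKM was 147 to 219 in CT, 143 to 287 in OS, 117 to 216 in ON, 115 to 304 in MM and 209 to 238 in MN. In whole spleen, fewer cells of a type and less RNA per cell cannot be told apart.

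Gpr171 (ENSMUSG00000050075, chromosome 3, 59003869 to 59009242, minus strand, as the deposited table places it on a build it does not name) had the widest spread of the 9 members. It read 12.6, 12.1, 11.7, 7.62 and 13.5 FPKM in the 5 CT libraries. In the 6 OS libraries the lowest was 25.5, the median 40.5 and the highest 84.2 FPKM. The OS and CT libraries did not overlap, and the OS mean of 45.97 ± 20.4 FPKM (SD, n = 6) was 4 times the CT mean of 11.5 ± 2.27 (SD, n = 5).

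ON, the other OVA code, was lower on average. Gpr171 read 20.98, 40.3, 16.03, 12.8 and 12.7 FPKM in ON 1 to ON 5, with a mean of 20.6 ± 11.6 (SD, n = 5), and the last 2 of these lay inside the range of the CT libraries. Its high value was in ON 2, the library with the most pancreatic reads. Averaged over both codes, OVA exceeded saline by 1.25 ± 0.25 (SE) on the log2(FPKM + 1) scale. That is the contrast on which the gene was selected, and 2.17% of all tested genes passed in it.

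**Figure D1:**
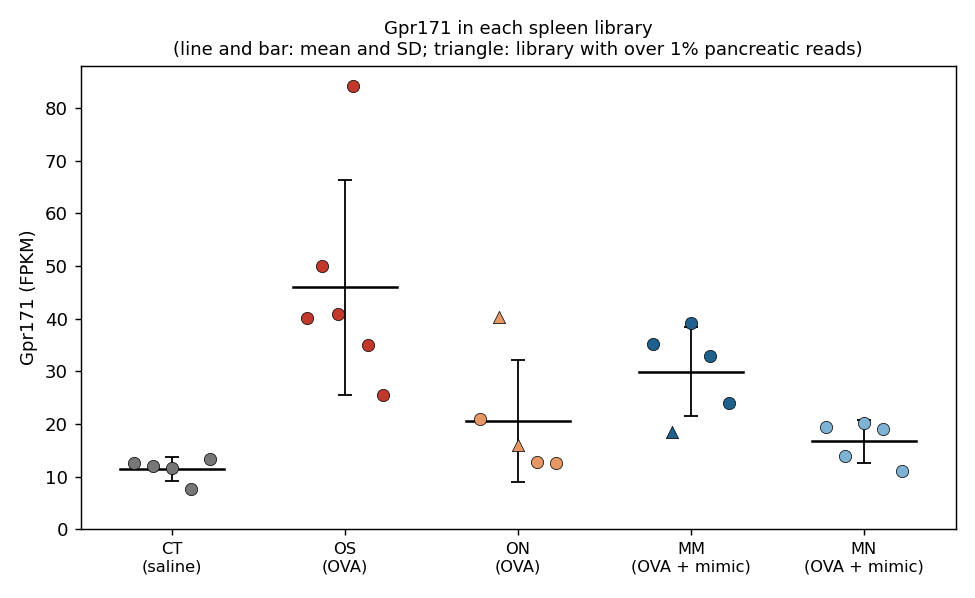
Gpr171 in FPKM (vertical axis) in each of the 26 libraries by code; lines and bars are the mean and SD, and triangles mark the 3 libraries with over 1% pancreatic reads. The 6 OS libraries lie between 25.5 and 84.2, above all 5 CT libraries, while the MN libraries reach down into the CT range.

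Under OVA with mimic, Gpr171 read 35.2, 18.6, 39.2, 32.9 and 24.04 FPKM in MM 1 to MM 5. All 5 lay above the highest CT library. Gpr171 was the only member for which MM and CT did not overlap, but it was chosen for a level above these saline libraries. Of all tested genes, 2% showed no overlap there. In MN 1 to MN 5 it read 19.5, 13.9, 20.2, 19.1 and 11.03 FPKM, and MN 5 fell within the CT range. The means were 29.97 ± 8.46 and 16.7 ± 4.07 FPKM (SD, n = 5 each), or 2.61 and 1.46 times the CT mean.

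The order of the means was OS, MM, ON, MN and CT. Each neighbouring pair in that order overlapped in its libraries. The ON mean was nearer to saline than the OS mean, and the MN mean nearer than the MM mean. The labels do not say whether ON and MN correspond.

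Set against T-cell RNA, Gpr171 was above the highest saline library in every OS, ON and MM library. Relative to the summed FPKM of the 11 T-cell markers it was 5.17% to 6.57% in CT, 17.8% to 29.3% in OS, 11.2% to 20.0% in MM and 4.77% to 9.09% in MN. In ON it was 6.89% to 9.72% in 4 libraries and 34.3% in ON 2. The saline and OVA libraries entered the choice of Gpr171, so its ratios against saline are a description. Cd274 and Pdcd1 also lay above the highest saline library in every OS library, which no other member but Gpr171 did. Cd274 was 7.95% to 15.2% in OS and at most 5.75% in CT. Pdcd1 was 2.17% to 4.41% in OS and at most 2.14% in CT. None of the 11 markers passed the test in any of the comparisons below.

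Gpr171 lies inside Med12l, a Mediator subunit gene on the opposite strand, and the counting is not stated to use strand. Med12l averaged 0.912 FPKM in MN to 1.27 FPKM in ON, and its rank correlation with Gpr171 over the 26 libraries was 0.06. No exon base of Gpr171 is shared with an exon of Med12l in the GRCm38 annotation.

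Within the PD-1 axis, Cd274 had the highest rank correlation with Gpr171 over all 26 libraries, while within codes Pdcd1 and Cd274 were close to each other (values below). Cd274 (PD-L1; chromosome 19, 29344855 to 29365495, plus strand) read 9.06, 9.41, 8.75, 8.47 and 9.36 FPKM in CT. In OS the lowest was 12.4, the median 20.7 and the highest 33.2 FPKM, all above the CT libraries. OS and CT did not overlap for 2 of the 9 members, Gpr171 and Cd274, and for 2.35% of all tested genes.

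In ON 1 to ON 5, Cd274 read 10.9, 20.0, 9.83, 8.74 and 8.08 FPKM, so that ON 2 again stood above the rest. In MM it read 15.3, 8.42, 12.8, 13.2 and 14.95, with the low value in MM 2, and in MN it read 10.1, 8.97, 10.5, 10.7 and 10.3 FPKM. The MN libraries all lay below the lowest OS library. The summed FPKM of 8 dendritic-cell markers was 70.6 to 97.5 in CT and 88.0 to 243 in OS. It was 79.0 to 115 in ON, 81.0 to 200 in MM and 84.8 to 104 in MN. The part of dendritic cells in the Cd274 levels was not tested. An antisense RNA, Gm36043, overlaps Cd274 and averaged 1.31 FPKM in CT, 2.97 in OS, 1.51 in ON, 2.20 in MM and 1.69 in MN; without strand, reads of the pair cannot be told apart.

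The receptor Pdcd1 (PD-1; chromosome 1, 93966027 to 93980278, minus strand) was lower in level, with 44 to 292 reads per library. It read 3.87, 3.96, 3.33, 1.70 and 4.37 FPKM in CT, and in OS the lowest was 3.10, the median 6.39 and the highest 9.98. OS 6 was the only OS library inside the CT range. In ON it read 3.73, 5.07, 3.38, 2.45 and 3.08 FPKM, a mean of 3.54 ± 0.97 (SD, n = 5) against 3.44 ± 1.04 (SD, n = 5) in CT.

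With mimic, Pdcd1 read 6.38, 4.03, 6.33, 3.74 and 3.48 FPKM in MM and 4.53, 3.37, 5.38, 4.95 and 2.29 in MN. Both codes overlapped CT and OS. The other ligand, Pdcd1lg2 (PD-L2; chromosome 19, 29388319 to 29448561, plus strand), stayed at 0.685 to 2.97 FPKM, or 18 to 95 reads. Its means were 2.00 in CT, 2.23 in OS, 1.49 in ON, 1.67 in MM and 1.97 FPKM in MN, and all codes overlapped.

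The 2 receptors of HVEM had their highest means in different codes, Cd160 in MN and Btla in OS. Cd160 (chromosome 3, 96706079 to 96736667, minus strand), a lipid-anchored receptor of NK cells and CD8 T cells, was low at 25 to 121 reads and reached 1 FPKM in 23 of 26 libraries. It read 1.296, 1.94, 1.55, 1.84 and 2.01 FPKM in CT, and in OS the lowest was 0.689, the median 1.11 and the highest 1.39. Of the 6 OS libraries, 5 lay below the whole CT range.

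Cd160 read 1.97, 1.22, 1.49, 1.56 and 1.80 FPKM in ON and 2.16, 1.62, 1.87, 1.15 and 1.95 in MM. In MN it read 1.76, 2.54, 2.16, 2.49 and 2.32 FPKM, and 4 of these 5 exceeded every CT library. The summed FPKM of 9 NK-cell markers was 76.7 to 126 in CT, 66.3 to 102 in OS, 83.2 to 98.2 in ON, 92.1 to 109 in MM and 90.8 to 112 in MN. In OVA against saline, 2 of the 9, Ncr1 and Gzma, passed as lower, where 2.17% of all genes passed, and 7 did not pass. The part of NK cells in the Cd160 levels was not tested.

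Btla (chromosome 16, 45044678 to 45078033, plus strand) was the most abundant member, at 31.1 to 70.7 FPKM. Its means were 42.5 ± 4.32 in CT (SD, n = 5), 55.6 ± 13.1 in OS (SD, n = 6), 51.3 ± 7.29 in ON, 50.2 ± 12.2 in MM and 42.4 ± 1.71 FPKM in MN (SD, n = 5 each). All codes overlapped.

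Vsir (chromosome 10, 60182630 to 60208463, plus strand) was lowest on average where Gpr171 was highest. It read 37.6, 43.7, 40.2, 25.9 and 39.8 FPKM in CT, and in OS the lowest was 21.3, the median 31.4 and the highest 34.7. Only CT 4 among the saline libraries lay inside the OS range. In ON it read 33.1, 23.9, 39.9, 38.8 and 40.7 FPKM, in MM 35.95, 41.1, 35.5, 38.6 and 29.4, and in MN 40.8, 41.7, 43.7, 43.1 and 43.2.

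Lag3 (chromosome 6, 124881324 to 124888668, minus strand) and Havcr2 (chromosome 11, 46345762 to 46372082, plus strand) overlapped between all codes. Lag3 averaged 6.55 FPKM in CT, 7.30 in OS, 6.13 in ON, 8.12 in MM and 7.64 in MN, and its lowest library was CT 4 at 2.83. Havcr2 averaged 9.82, 12.1, 9.46, 10.7 and 9.50 FPKM in the same order, and its highest library was OS 4 at 18.8, where Gpr171, Pdcd1, Btla, Cd274 and Pdcd1lg2 were also at their highest.

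**Figure D2:**
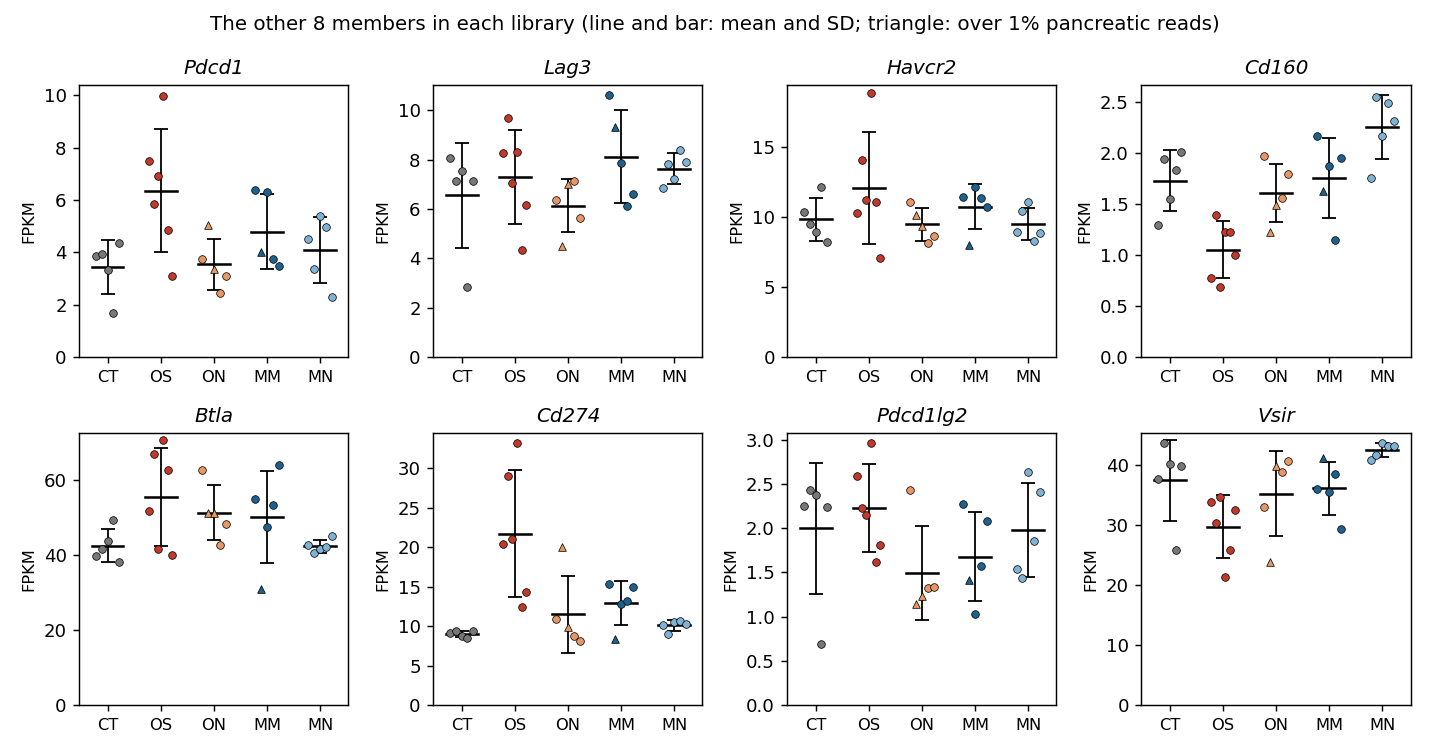
FPKM (vertical axes, 1 panel per gene) of the other 8 members in each library by code (CT saline, OS and ON OVA, MM and MN OVA with mimic); lines and bars are the mean and SD, and triangles mark the libraries with over 1% pancreatic reads. Cd274 is above every CT library in all 6 OS libraries, and Cd160 and Vsir are lowest on average in OS and highest in MN.

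The first question of the design for these genes is whether mice given OVA with mimic differed from those given OVA alone. None of the 8 members other than Gpr171 passed the limma test, and 0% of all genes did; 1590 genes had an unadjusted p under 0.05, and the smallest adjusted p over all genes was 0.137. Cd160 came closest, higher with mimic by 0.37 ± 0.08 (SE) on the log2(FPKM + 1) scale (limma adjusted p = 0.139), and by 0.61 with voom on the recovered reads, which adds no pseudocount of 1. Cd274 differed by -0.38 ± 0.15 (SE; limma adjusted p = 0.404). Gpr171 differed by -0.37 ± 0.20 (SE), given without a test because its OVA libraries entered its choice. The Gpr171 difference was -0.14 once the 3 pancreas-bearing libraries were left out.

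OVA with mimic against saline likewise gave no call among the other 8 members or among all genes (0%), with 1053 genes at an unadjusted p under 0.05 and a smallest adjusted p of 0.172. Of the 9 members, 8 lay above 0, as did 51.6% of all tested genes. The 8 include Gpr171, which was chosen for a level above these saline libraries. The median of the 9 was 0.13 on the log2 scale against 0.01 over all tested genes. Gpr171 differed by 0.89 ± 0.25 (SE), without a test because the saline libraries entered its choice. The other 8 differences ran from -0.06 in Pdcd1lg2 to 0.30 in Cd274.

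Within OVA, OS against ON asks whether the 2 undefined codes differ. None of the 8 members other than Gpr171 passed, where 0.185% of all genes did (29 genes), and 1658 genes had an unadjusted p under 0.05. Cd274 differed by 0.86 ± 0.21 (SE; limma adjusted p = 0.0876) and Pdcd1 by 0.66 ± 0.23 (adjusted p = 0.270), both with the higher mean in OS. Gpr171 differed by 1.16 ± 0.28 (SE), again without a test, since both codes entered its choice. No member was free of overlap between OS and ON, against 0.759% of all genes; 3 of the 6 OS libraries exceeded every ON library for Gpr171 and 4 of 6 for Cd274.

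Whether Cd274 passed between OS and ON turned on single libraries. Without ON 2 its difference was 1.06 (limma adjusted p = 0.0047), and without OS 5 it was 0.99 (adjusted p = 0.0116). Without all 3 libraries with pancreatic reads it was 1.08 (adjusted p = 0.0116), and the Gpr171 difference was 1.45. With libraries weighted by their fit, Cd274 passed (1.13, adjusted p = 0.00035) and so did Pdcd1 (0.77, adjusted p = 0.0417). Over the 36 alternatives the adjusted p of Cd274 ran from 0.00035 to 0.451.

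Within OVA with mimic, the difference of MM from MN uses no library on which Gpr171 was chosen. Its standard error and p-value rest on a spread fitted over all 26 libraries, saline and OVA included. A fit of the MM and MN libraries alone was among the 36 alternatives, and Gpr171 passed in 0 of these. None of the 9 members passed, where 0.172% of all genes did (27 genes), and 1137 genes had an unadjusted p under 0.05. Gpr171 was higher in MM by 0.79 ± 0.29 (SE; limma adjusted p = 0.464), with a 95% interval of 0.22 to 1.36, and 4 of the 5 MM libraries exceeded every MN library. The exception was MM 2, at 11% pancreatic reads; leaving out the pancreas-bearing libraries gave 0.94 (adjusted p = 0.169). No member was free of overlap between MM and MN, against 3.93% of all genes.

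A comparison across treatment and code together, MN against OS, was added after the values were seen. It sets the code with the lower Gpr171 under mimic against the code with the higher Gpr171 under OVA, so the mimic and the code cannot be told apart in it. Because the values led to this comparison, its p-values, here and below, are descriptions and no independent support. Of the 8 members other than Gpr171, 3 passed, where 2.89% of all genes did. Cd160 was higher in MN by 0.67 ± 0.12 (SE; limma adjusted p = 0.0025; 1.12 with voom on reads), Cd274 was lower by -0.96 ± 0.21 (adjusted p = 0.0140), and Vsir was higher by 0.52 ± 0.14 (adjusted p = 0.0498).

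These 3 genes and Gpr171 were also the members whose MN and OS libraries did not overlap, as did not 5.62% of all genes. Gpr171 differed by -1.34 ± 0.28 (SE), given without a test because its OS libraries entered its choice. The calls of Cd160 and Cd274 held in all 36 alternatives run, which reuse the same libraries. That of Vsir was lost in 28 of 36, including without any single library other than CT 4, OS 1, ON 2 or MM 5, with adjusted p from 0.0069 to 0.109. Pdcd1 differed by -0.50 ± 0.23 (adjusted p = 0.240), and Lag3, Havcr2, Btla and Pdcd1lg2 by -0.35 to 0.09.

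The macrophage markers, measured because Vsir is a myeloid gene, did not pass in MN against OS. Of these markers, 9 of 10 lay above 0, with a median of 0.32 on the log2 scale. So did 10 of 11 T-cell markers, also with a median of 0.32, and 50.5% of all tested genes. The summed FPKM of the macrophage markers was 841 to 1343 in OS and 1123 to 1536 in MN. Their part in the Vsir difference was not tested.

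**Figure D3:**
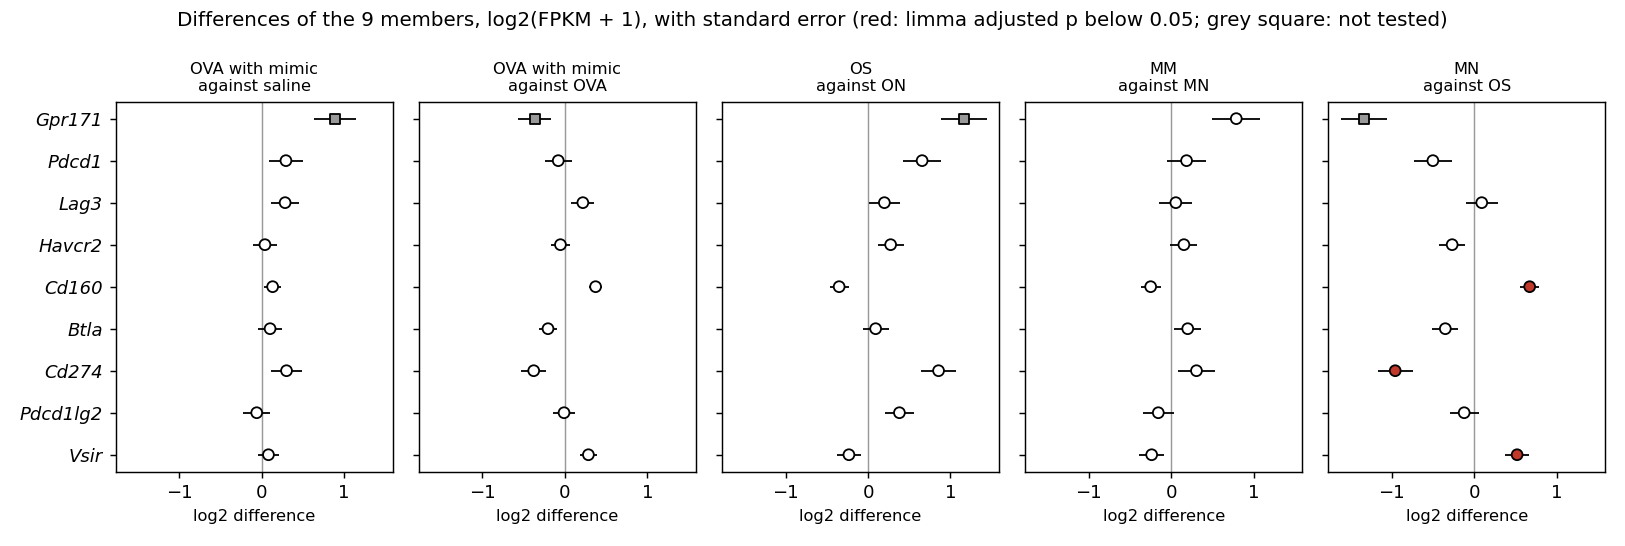
Log2 differences of FPKM + 1 (horizontal axes) with standard errors for the 9 members in 5 comparisons; red circles have a limma adjusted p under 0.05, and grey squares are Gpr171 values shown without a test because libraries of that comparison entered its choice. Red circles occur only in MN against OS, the comparison added after the values were seen, for Cd160, Cd274 and Vsir.

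Across the 26 libraries the members split by whether they ran with Gpr171. The rank correlation with Gpr171 was 0.89 for Cd274, 0.79 for Pdcd1, 0.52 for Havcr2 and 0.50 for Btla. It was 0.13 for Lag3 and 0.12 for Pdcd1lg2, and negative for Cd160 at -0.46 and Vsir at -0.59. The median over 11968 protein-coding genes was 0.01. These are descriptions: the libraries share treatments, depth and cell makeup.

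Once each code's mean was removed, the Pearson correlation with Gpr171 was 0.84 for Pdcd1, 0.82 for Cd274 and -0.43 for Vsir, and -0.07 for Cd160. Pdcd1 and Cd274 thus varied with Gpr171 between libraries of the same code, whereas the inverse relation of Cd160 lay between codes. Among the other pairs, Lag3 and Pdcd1lg2 reached 0.63 within codes, and Havcr2 and Btla 0.72.

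**Figure D4:**
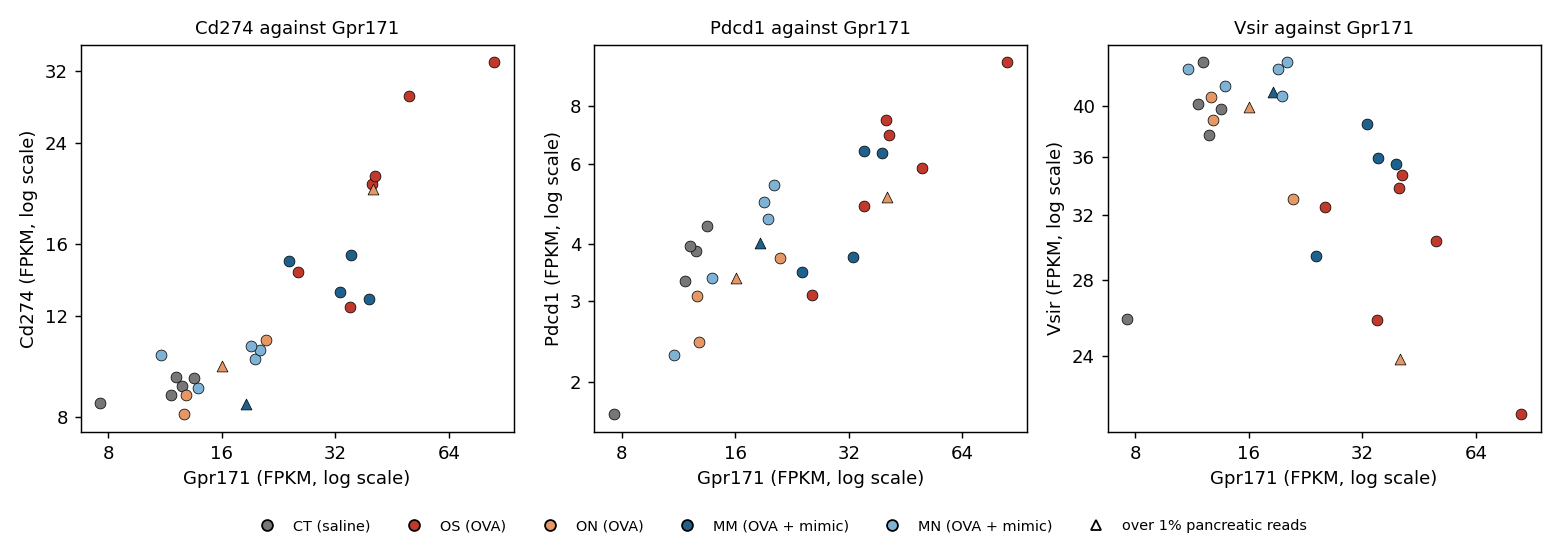
Cd274, Pdcd1 and Vsir (vertical axes) against Gpr171 (horizontal axes) in FPKM on log scales, 1 point per library coloured by code; triangles are libraries with over 1% pancreatic reads. Cd274 and Pdcd1 are highest and Vsir is lowest in OS 4, the library with the highest Gpr171 at 84.2 FPKM.

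The 5 protein-coding genes with the highest rank correlation with Gpr171 were Bhlhe40 (0.95), a transcription factor of activated lymphocytes, Stk17b (0.94), a kinase that restrains T-cell receptor signalling, Got1 (0.93), an aminotransferase, Trib1 (0.93), a pseudokinase, and Errfi1 (0.92), a feedback inhibitor of EGF receptors. Stk17b averaged 62.9 FPKM in CT, 135 in OS, 79.9 in ON, 109 in MM and 67.5 in MN. This is the order of Gpr171, which a choice by correlation over these same libraries favours. Cd274 stood 20th and Pdcd1 97th on this ranking.

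Around the members, 15 other co-inhibitory receptors were fixed as a list. In OS against ON, 1 of 15 passed, where 0.185% of all genes did, and 14 did not. The list's median was -0.03 against 0.01 for all genes. The gene that passed was Ctla4 (CTLA-4, the induced rival of CD28), with a mean of 18.0 ± 9.60 FPKM in OS (SD, n = 6) and 4.53 ± 3.37 in ON (SD, n = 5). The difference was 1.83 ± 0.38 (SE, limma adjusted p = 0.0417). Ctla4 averaged 3.98 in CT, 12.9 in MM and 5.69 FPKM in MN, and its rank correlation with Gpr171 was 0.92. In MN against OS, where 2.89% of all genes passed, it was again the 1 of 15, by -1.43 ± 0.38 (SE, limma adjusted p = 0.0427). In OVA against saline, where 2.17% of all genes passed, 1 of 15 passed, Klrg1, as lower. Cd22 and Cd72, the most abundant of the list and B-cell receptors, did not pass in any of the 6 comparisons.

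The Ctla4 call was not firm. In OS against ON it passed in 15 of 36 alternatives, with adjusted p from 0.00051 to 0.235. It was lost without CT 1, 2 or 3, OS 2, 3 or 4, ON 1, 3, 4 or 5, MM 3, 4 or 5, or MN 1, 3 or 4, and also with a pseudocount of 0.1 or 0.5, without a filter, with only the groups compared and with the replicate number as a block. In MN against OS it passed in 23 of 36 and was lost without CT 2 or 3, OS 2, 3 or 4, or any MN library, and with a pseudocount of 0.1, without a filter and with the block.

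The partners of the receptors showed no calls. None of 17 tested ligands and partners passed in the 6 comparisons, including HVEM (Tnfrsf14, mean 58.8 FPKM in CT and 74.4 in OS) and the MHC class II genes H2-Aa and Cd74. The BigLEN precursor gene Pcsk1n and the LAG-3 ligand gene Fgl1 were too low to be tested. None of 16 signal proteins of these receptors passed, the most abundant being the phosphatase Ptpn6 and the kinase Csk, and none of 15 tested co-stimulatory genes did in these 6 comparisons, Cd2 and Icosl included.

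Of 17 transcription factors of T-cell activation and exhaustion, 2 passed as higher in OS than ON, where 0.185% of all genes passed. Irf4 differed by 0.76 ± 0.13 (SE, limma adjusted p = 0.0202) and Prdm1 by 0.67 ± 0.13 (adjusted p = 0.0303). Both drive effector and plasma-cell programmes. Irf4 averaged 31.7 FPKM in OS and 18.0 in ON, and Prdm1 7.00 and 4.10. These calls held in 28 of 36 alternatives for Irf4 and 26 of 36 for Prdm1. Both were lost without OS 2, 3 or 4 or ON 3, 4 or 5, with the replicate block and with only the groups compared, and that of Prdm1 also without ON 1 and without a filter. In MN against OS, 4 of 17 passed as lower, where 2.89% of all genes passed. These were Irf4, Prdm1, and the orphan nuclear receptors Nr4a2 and Nr4a3 that follow antigen-receptor signals. The 4 differed by -0.78 to -1.51 and passed in all 36 alternatives. The same 4 genes passed as higher in OVA against saline, the comparison on which Gpr171 was chosen, where 2.17% of all genes passed. Id2 and Nr4a1, the most abundant of the rest, did not pass in any of the 6 comparisons.

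Of 10 neighbours and relatives of Gpr171, 8 could be tested. In the 6 comparisons, 1 of the 8 passed in 1 of them, MN against OS, where 2.89% of all genes passed. This was Gpr183, the oxysterol receptor that guides lymphocytes in the spleen, lower by -0.86 ± 0.24 (SE, limma adjusted p = 0.0498). It passed in 10 of 36 alternatives. Of the single libraries, it kept the call only without CT 4, OS 5, OS 6, ON 2, MM 1, MM 2 or MM 3. The P2Y-type neighbours beside Gpr171 in the genome did not follow it, with rank correlations of 0.00 for P2ry12, -0.45 for P2ry13 and 0.30 for P2ry14.

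Of 12 immediate early genes, which respond to stimulation within minutes, 4 passed as higher in OS than ON, where 0.185% of all genes passed, with a list median of 2.00 on the log2 scale. In MM against MN none of the 12 passed, with a median of 1.06, and in MN against OS 6 passed as lower, where 2.89% of all genes passed. Their summed FPKM was 72.1 to 569 in CT, 243 to 1447 in OS, 159 to 438 in ON, 437 to 1503 in MM and 161 to 367 in MN. OS 5 had the lowest sum of the OS libraries, 243, with Gpr171 at 35.1 FPKM and Cd274 at 12.4 FPKM, its lowest in OS. Gpr171 was lowest in OS 6 among the OS libraries, at 25.5 FPKM, with a sum of 1039. The part of this response in the levels of Gpr171 and Cd274 was not tested. The summed FPKM of 10 glucocorticoid-induced genes, Errfi1 among them, was 101 to 411 in CT and 344 to 780 in OS. It was 318 to 605 in ON, 505 to 751 in MM and 377 to 531 in MN. Of these 10 genes, 4 passed as higher in OVA against saline, where 2.17% of all genes did, and 1 passed as higher in OS than ON. In MN against OS, 2 passed as higher and 2 as lower. Their part in the Gpr171 levels was not tested either.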

How the data were processed

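The authors deposited FPKM per gene for 26 spleen libraries; per the submitters' processing notes the tools include HISAT2 2.0.5, StringTie 1.3.3b and featureCounts 1.5.0-p3, and no genome build is named there. FPKM times gene length gave whole reads for 100% of values (tolerance 0.05), from 14224832 to 18113989 per library. The 15672 genes that reached an FPKM of 1 in 5 or more libraries were tested on log2(FPKM + 1), which understates changes of low genes such as Cd160 and Pdcd1lg2. limma 3.58.1 in R 4.3.3 fitted 1 mean per code over all 26 libraries with a variance trend; OVA and OVA with mimic are averages of their 2 codes. The Benjamini-Hochberg adjustment ran within each comparison (threshold 0.05), and the fit was tested on simulated data. Alternatives covered the pseudocount, filter, libraries fitted, library weights, scaling, voom on recovered reads, a replicate block, and leaving out libraries. Of the lists, up to 4 passing genes and the 2 most abundant others could be named; Tnfrsf14, Pcsk1n, Fgl1 and the genes beside or overlapping a member are named for their role or place. The members, lists and comparisons were chosen with earlier results of these data known. Sequences came from RefSeq-based tables of GRCm38.p6, in Python 3.11.15.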

Additional observations from a re-analysis of the deposited data

Results flagged for a closer look

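In 45 groups of member and code, 4 libraries stood far from the rest of their code by Dixon's criterion, which chance flags in about 1 in 20 groups. Lag3 was lowest in CT 4 at 2.83 FPKM, with the other saline libraries at 7.14 to 8.09. Pdcd1lg2 was also lowest in CT 4, at 0.685 FPKM against 2.24 to 2.43, the library with 6.62% mitochondrial reads. Cd274 was highest in ON 2 at 20.0 FPKM against 8.08 to 10.9 in the other ON libraries, and ON 2 had 21.8% pancreatic reads. Pdcd1lg2 was highest in ON 1 at 2.43 FPKM against 1.15 to 1.33.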

How the results depend on the processing

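Of 1492 recomputed values of the members, leaving out OVA against saline and the comparisons in which Gpr171 has no test, 1445 kept their direction and call, or moved by less than their standard error where neither value was called. None of the called values changed sign, 28 lost a call (Vsir in MN against OS), 5 gained one (Cd274 and Pdcd1 in OS against ON) and 14 moved further; 18 uncalled values changed sign. Counts of genes called over the whole table were less stable. With library weights they were 1435 in OVA against saline, 36 in each comparison of the mimic, 564 in OS against ON, 474 in MM against MN and 1746 in MN against OS, where the fits with equal weights gave 340, 0, 29, 27 and 453. Without a filter they were 150, 6, 7 and 246 in OVA against saline, OS against ON, MM against MN and MN against OS. With only the groups compared they were 117 in OVA against saline, 0 in OS against ON and 123 in MM against MN. OVA against saline gave 87 with a single mean per treatment, OS against ON gave 17 with a pseudocount of 0.1, and without the libraries with pancreatic reads these gave 108 and 122. The causes were not tested.

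The replicate numbers did not pair the libraries: deviations of libraries with the same number correlated at a median of -0.04 over 50 pairs, and 1 of 26 libraries correlated best with its own number. With a replicate block the counts were 184 in OVA against saline, 3 in OS against ON, 21 in MM against MN and 258 in MN against OS, and 0 in both comparisons of the mimic; among the members the block ended the call of Vsir, and among the other genes named in OS against ON and MN against OS those of Ctla4 in both, Irf4 and Prdm1 in the first and Gpr183 in the second.

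Leaving out 1 library gave 152 to 486 calls in OVA against saline, namely 152, 218, 170 and 178 when CT 1, CT 2, CT 3 or CT 5 was dropped and 225 and 215 when ON 1 or ON 2 was. In OVA with mimic against OVA it gave 0 to 22, with 22 without CT 4 and 2 without OS 5, and against saline 0 to 1, with 1 without MN 2. OS against ON ranged from 3 to 260, with 260 without OS 5, 215 without ON 2, 67 without CT 4, 47 without OS 1, 16 without CT 2, 15 without MN 1, 5 without OS 4, 4 without ON 1, and 3 without OS 2, OS 3, ON 3, ON 4 or ON 5. MM against MN ranged from 1 to 53, with 53 without CT 4, 16 without MN 4, 15 without MM 1, 8 without MN 5, 2 without MN 2 or MN 3, and 1 without MM 4, MM 5 or MN 1. MN against OS ranged from 182 to 1102, with 1102 without CT 4, 281, 288 and 273 without OS 2, OS 3 and OS 4, and 244, 182, 200, 249 and 232 without MN 1 to MN 5. Without CT 4 the Lag3 difference of OVA from saline went from 0.07 to -0.16.

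The planned edgeR test was not run, because the deposited values are FPKM; voom on recovered reads took its place. A single mean per treatment gives no value for comparisons between codes. At 18 to 121 reads, Pdcd1lg2 and Cd160 are limited by counting, and their differences moved with the pseudocount.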
